A study of Rattus norvegicus and Mus musculus with 22 samples.

Results

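The genes described here are 40 regulators and markers of the cell division cycle, taken by name from the gene symbols of 6 expression tables that together list 29047 symbols. They comprise 17 genes of S phase entry and DNA replication, 16 mitotic genes, 3 D cyclins and 4 CDK inhibitors. All 40 are in the mouse tables. The rat tables have no row for E2f2, and 2 of the 3 rat tables have none for Bub1b, which leaves 39 and 38 members.

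The study measured RNA by sequencing in cells given forskolin, which activates adenylyl cyclase and so raises cAMP, the signal that acts on the transcription factor CREB. It comprises 22 libraries in 16 groups. AR42J, a rat pancreatic line with acinar features, carried NeuroD1, a transcription factor of endocrine cells, or GFP, each with and without forskolin in 1 library. INS-1, a rat insulinoma line, had 1 library each with JQ1 and forskolin, A-485 and forskolin, forskolin alone, and control, and, in a separate experiment, 2 forskolin and 2 control libraries. Islets from mice with a whole-body knockout of CRTC2, a coactivator of CREB, had 1 forskolin and 1 control library. Cultured islets and cultured hepatocytes of wild-type black6 mice had 2 forskolin and 2 control libraries each. Forskolin was used at 10 µM for 2 h, JQ1 (a blocker of BET bromodomains) at 1 µM for 4 h and A-485 (an inhibitor of the p300 and CBP acetyltransferases) at 10 µM for 4 h. The labels give neither how NeuroD1 and GFP were brought into AR42J nor whether the cells are a clone.

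D cyclins start the cycle: they activate the kinases that release E2F factors from the retinoblastoma protein, and CDK inhibitors hold those kinases back. E2F factors then switch on E-type cyclins and the replication machinery, while mitotic genes come on later through other promoter elements. Adult beta cells and hepatocytes are mostly quiescent, whereas INS-1 and AR42J are dividing tumour lines.

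Several libraries stood apart from their labels and bear on the results. In the islet table, 1 forskolin library carried liver transcripts: the median of the 17 listed hepatocyte markers, on the authors' regularised log2 scale, was 7.43 and 4.34 in forskolin replicates 1 and 2, against 4.68 and 4.27 in the controls. In the table of the CRTC2 experiment, the summed hepatocyte markers came to 3786 FPKM with forskolin and 865 FPKM without it in knockout islets, against 177 and 133 FPKM in wild-type islets. In the hepatocyte table, the command recorded in the header lists the replicate 2 pair in the opposite order to the column names, and Pck1, a cAMP-induced gene, read 10.08 and 7.62 in columns named forskolin and 7.71 and 10.17 in columns named control. Across 15492 genes, the authors' hepatocyte fold changes followed the header order (Pearson r = 0.98 with the differences in that order, and 0.20 with the columns as named; genes are not independent replicates). Read totals ran from 1.95 to 6.20 M in the replicated tables where the header gives them, and the estimated depth of the unreplicated tables ran from 0.614 M (knockout islets with forskolin) to 5.77 M. The labels do not state whether replicates were separate animals or cultures, so every p-value here reflects the spread among libraries alone, which may be technical.

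The resting level of these genes differed widely among the cells. In FPKM, a read density per transcript length, the median over the S phase genes without forskolin was 28.0 in NeuroD1 AR42J cells, 64.4 in GFP AR42J cells, 36.7 in INS-1 cells, 2.30 in CRTC2 knockout islets and 1.99 in wild-type islets. The mitotic genes had medians of 20.4, 51.7, 98.1, 0.499 and 0.327 FPKM in the same order of cells. In knockout islets 14 of the 16 mitotic genes were under 1 FPKM, and in wild-type islets 13 were, with 6 listed at 0. The tables were normalised separately, and these levels are a description without a test.

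Replication and mitotic genes were lower in AR42J cells with NeuroD1 than in those with GFP, nearly without exception. NeuroD1 itself read 3323 and 3834 FPKM in the NeuroD1 libraries without and with forskolin, against 3.44 and 5.67 FPKM in the GFP libraries. In an additive limma fit of NeuroD1 and forskolin over the 4 libraries, on log2(FPKM + 1) with Benjamini-Hochberg adjustment over 10142 genes, 34 of 37 members fell and 1 rose at adjusted p under 0.05. Among all tested genes, 19.6% fell and 17.6% rose. All 16 S phase genes and all 15 mitotic genes tested fell, with median log2 differences of -1.13 and -1.09, against -0.01 over all tested genes. With 1 residual degree of freedom this fit leans on a spread shared across genes. It takes the libraries without and with forskolin as repeats of each arm. An effect of NeuroD1 therefore cannot be told apart from any other difference between the NeuroD1 and GFP cells, whatever the p-value. In bulk RNA, fewer cycling cells and less RNA per cell cannot be told apart.

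Among the S phase genes, Ccne1 (cyclin E1, which drives entry into S phase) moved most. It read 13.0 and 12.3 FPKM in NeuroD1 cells without and with forskolin, against 47.3 and 39.2 FPKM in GFP cells, a log2 difference of -1.69 (SE 0.12, adjusted p = 3.25e-07 by limma). Pcna, the sliding clamp of DNA polymerase, read 281 and 280 FPKM in NeuroD1 cells and 623 and 611 FPKM in GFP cells (log2 difference -1.14, SE 0.08, adjusted p = 1.98e-07 by limma). The libraries of the 2 arms did not overlap for either gene, and the forskolin libraries lay close to their untreated partners. Mcm2, a subunit of the replicative helicase, had 51.6 and 47.0 FPKM with NeuroD1 against 99.0 and 95.6 FPKM with GFP. E2f1, the activating E2F factor that turns on replication genes, had 16.4 and 15.3 FPKM with NeuroD1 against 35.3 and 39.5 FPKM with GFP. Both fell by a similar amount, with log2 differences of -0.97 and -1.19. The smallest change in this group was that of Mcm4, another helicase subunit, at 22.3 and 26.1 FPKM with NeuroD1 against 36.0 and 36.9 FPKM with GFP (log2 difference -0.57, adjusted p = 0.00142 by limma).

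The mitotic genes fell within a narrow range. Mki67, the gene of the Ki-67 proliferation antigen, read 28.6 and 27.6 FPKM in NeuroD1 cells and 76.5 and 70.2 FPKM in GFP cells (log2 difference -1.35, SE 0.10, adjusted p = 3.91e-07 by limma). Aurkb, the kinase of the chromosomal passenger complex, read 22.7 and 27.9 FPKM with NeuroD1 and 61.1 and 67.4 FPKM with GFP, a log2 difference of -1.32. Top2a, the topoisomerase that untangles sister chromatids, read 64.0 and 65.4 FPKM with NeuroD1 and 152 and 151 FPKM with GFP. Ccnb1, the cyclin B1 partner of Cdk1, read 22.8 and 28.6 FPKM with NeuroD1 and 54.3 and 59.4 FPKM with GFP. Each of these 4 genes stood lower in both NeuroD1 libraries than in both GFP libraries. Ccna2 (cyclin A2) and the spindle motor gene Kif11 fell by 1.31 and 1.29 on the log2 scale. Over all 37 members, both NeuroD1 libraries lay below both GFP libraries for 34, against 33.9% of all genes, and above them for Cdkn1c alone, against 32.7% of all genes.

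Taken pair by pair without a test, the shift had nearly the same size in each pair. Without forskolin, 34 of 37 members were at least 1.5-fold lower and 1 was higher, where 13.2% of all genes were lower and 14.5% higher. The 31 S phase and mitotic genes had a median log2 ratio of -1.18 (SD 0.24 over genes), spanning -1.79 for Ccne1 to -0.67 for Mcm4. The furthest from GFP after Ccne1 were Aurkb, Mki67, Ccna2, Kif11 and Rrm1, the large subunit of ribonucleotide reductase, at log2 ratios from -1.39 to -1.33. With forskolin in both arms, 32 of 37 members were lower and 0 higher, against 12.1% and 12.7% of all genes, and the median ratio of the same 31 genes was -1.03 (SD 0.20). Ccne1 was again lowest at -1.60, followed by E2f1, Mki67, Mcm5, Ccna2 and Aurkb at -1.32 to -1.24.

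D cyclins and CDK inhibitors did not move as one group with NeuroD1. Ccnd2 (cyclin D2), the most abundant D cyclin in these cells, read 586 and 733 FPKM with NeuroD1 and 1095 and 1495 FPKM with GFP, and fell by 0.96 on the log2 scale (adjusted p = 1.28e-06 by limma). Ccnd3 (cyclin D3) read 32.7 and 35.7 FPKM with NeuroD1 and 52.0 and 49.3 FPKM with GFP, and fell by 0.55 (adjusted p = 0.00102 by limma). Ccnd1 (cyclin D1) was listed at 0 in all 4 AR42J libraries. Of the inhibitors, Cdkn1a (the p53 target p21) fell too, with 137 and 160 FPKM with NeuroD1 against 277 and 269 FPKM with GFP (log2 difference -0.88, adjusted p = 5.17e-06 by limma). Cdkn1c, the imprinted inhibitor p57, was the only member that rose, at 26.0 and 19.8 FPKM with NeuroD1 against 13.0 and 14.5 FPKM with GFP (log2 difference 0.68, SE 0.15, adjusted p = 0.00289 by limma). Its call was lost without a variance trend in the fit (limma adjusted p = 0.0652). Cdkn1b, the inhibitor p27, read 82.5 and 102 FPKM with NeuroD1 and 78 and 90.8 FPKM with GFP, and Cdkn2c, an inhibitor of the cyclin D kinases, read 34.7 and 42.9 against 35.3 and 34.7 FPKM. Neither passed the test, with adjusted p of 0.285 and 0.368 by limma.

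**Figure D1:**
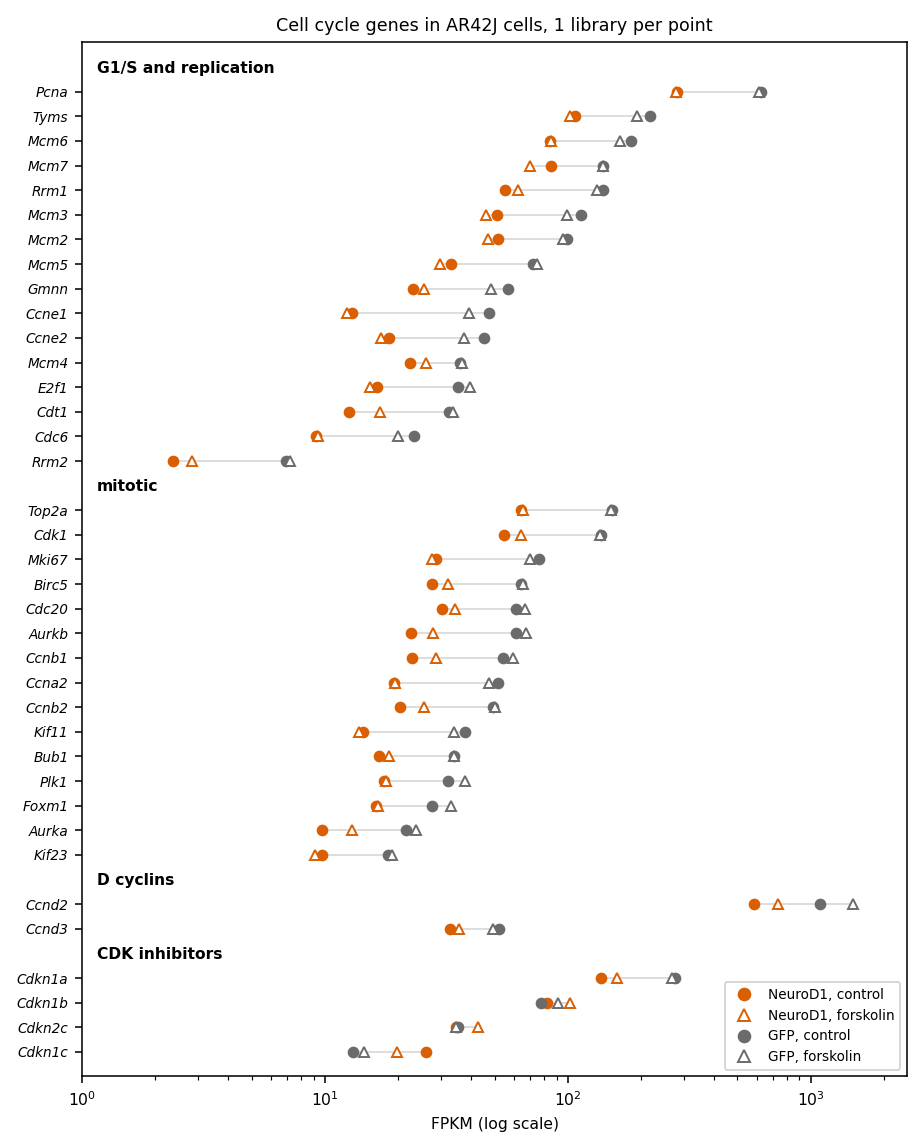
FPKM (log axis) of 37 cell cycle genes in the 4 AR42J libraries, grouped by role, with NeuroD1 in orange, GFP in grey, circles without forskolin and open triangles with it. For 34 of the 37 genes both orange points lie below both grey points, while Cdkn1c has both above.

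Cell cycle genes outside the 40 moved in the same comparison, where 19.6% of all tested genes fell and 17.6% rose. Of 40 further mitotic genes tested, 39 fell (median log2 difference -1.11), among them Gtse1, Spc25 and Ckap2 at -1.41, -1.38 and -1.37. Of 34 further replication genes, 32 fell and 1 rose (median -0.94): the repressor E2f7 and the cell cycle activator Mybl2 had log2 differences of -1.79 and -1.76, and Gins2, a helicase component, rose by 0.89. Of 14 further regulators of G1, 6 fell and 2 rose (42.9% and 14.3%), the rises being under the share of all genes. Myc, a growth-promoting factor, fell by 1.04 on the log2 scale, and Cdkn2b, an inhibitor of the cyclin D kinases, rose by 0.78. Among 13 targets of p53, 6 fell and 4 rose (46.2% and 30.8%), including Gdf15 at -2.37 and Gadd45a at 1.31. Digestive enzyme markers of acinar cells moved as well: their summed level was 22529 and 25289 FPKM with NeuroD1 and 45941 and 49653 FPKM with GFP, and Cpa1, the carboxypeptidase, read 3378 and 4146 FPKM against 8003 and 8902 FPKM. Of the 12 listed acinar markers, 10 were at 1 FPKM or more in each NeuroD1 library and 11 and 10 in the GFP libraries without and with forskolin. Ins2 was listed at 0 in all 4 libraries. Ins1 read 1.49 FPKM in NeuroD1 cells with forskolin and was listed at 0 in the other libraries. The summed beta cell markers, without and with forskolin, were 14.99 and 19.96 FPKM with NeuroD1 and 9.08 and 12.84 FPKM with GFP. The part of the acinar and beta cell genes in the result was not tested.

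Because replication and mitotic genes fell together, their promoters were read for the known elements of each class. RefSeq promoters of the rat build GRCr8 were matched for 28 of the 40 members, and the 250 bases before each start site were searched on both strands. Not matched were Ccnd1, Ccnd2, Ccna2, Ccne2, E2f1, E2f2, Mcm4, Rrm2, Cdc6, Cdkn1c, Foxm1 and Aurkb. An E2F element was counted as TTTCCCGC, TTTGGCGC or TTTCGCGC. It was found in 5 of 11 S phase promoters (Mcm2, Mcm5, Mcm6, Mcm7 and Tyms) and 1 of 13 mitotic promoters (Cdk1), against 1.41% of 33469 promoters. The CHR element TTTGAA, which mitotic genes use, was found in 1 of 11 S phase and 7 of 13 mitotic promoters, against 16.2% of all promoters. CCAAT, often paired with the CHR, was found in 7 of 11 and 10 of 13, against 34%.

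Mcm6 and Mcm5 are shown as replication genes with E2F elements, and Cdc20 and Plk1 as mitotic genes with a CCAAT box next to the start site. The capitals mark E2F elements in Mcm6, E2F elements and the full CRE (TGACGTCA, the CREB element) in Mcm5, the CHR and CCAAT in Cdc20, and CCAAT in Plk1. In Mcm6, bases -139 to -128 before the start hold TTTGGCGC and, on the other strand, TTTCGCGC, which overlap. In Mcm5 the same pair overlaps at -213 to -202, another element lies at -8 to -1, and the CRE lies at -159 to -152. Cdc20 holds its CHR at -51 to -46 between CCAAT boxes at -86 and -41, and Plk1 holds CCAAT at -38 to -34 and no TTTGAA in this window. The regions are chr13:42404353-42404602 (minus strand) for Mcm6, chr19:13488563-13488812 (plus) for Mcm5, chr5:137255800-137256049 (minus) for Cdc20 and chr1:186147408-186147657 (plus) for Plk1. A match describes the letters and does not show binding.
Mcm6: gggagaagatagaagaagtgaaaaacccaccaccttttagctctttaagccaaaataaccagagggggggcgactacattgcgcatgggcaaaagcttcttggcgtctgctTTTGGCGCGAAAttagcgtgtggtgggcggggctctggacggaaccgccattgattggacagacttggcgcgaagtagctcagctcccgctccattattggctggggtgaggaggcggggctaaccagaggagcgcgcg
Mcm5: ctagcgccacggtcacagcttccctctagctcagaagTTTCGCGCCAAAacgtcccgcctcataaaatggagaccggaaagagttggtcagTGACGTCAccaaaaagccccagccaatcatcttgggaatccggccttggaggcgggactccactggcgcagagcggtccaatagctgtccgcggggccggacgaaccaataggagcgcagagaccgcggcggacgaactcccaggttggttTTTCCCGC
Cdc20: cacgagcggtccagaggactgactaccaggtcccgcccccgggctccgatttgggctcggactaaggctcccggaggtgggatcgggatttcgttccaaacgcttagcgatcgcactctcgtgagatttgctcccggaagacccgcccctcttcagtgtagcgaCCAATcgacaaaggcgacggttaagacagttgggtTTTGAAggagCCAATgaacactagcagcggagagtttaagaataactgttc
Plk1: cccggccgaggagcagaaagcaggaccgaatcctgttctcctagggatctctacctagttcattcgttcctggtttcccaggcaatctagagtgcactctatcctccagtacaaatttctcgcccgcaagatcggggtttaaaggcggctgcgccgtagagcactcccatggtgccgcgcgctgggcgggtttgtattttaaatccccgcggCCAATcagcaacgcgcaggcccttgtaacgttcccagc

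Among replication and mitotic genes, members with and without a match fell in AR42J, and the part of these elements in the fall was not tested. Sites outside the window or with other letters were not searched. Ccne1, with no match to the letters of the 5 elements in this window, had the lowest ratio of all members. Mcm6 and Mcm5, with E2F elements, read 84.8 and 33 FPKM with NeuroD1 against 183 and 72.2 FPKM with GFP in the pair without forskolin.

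Forskolin for 2 h left the replication and mitotic genes of AR42J near their starting level. No member passed 1.5-fold in either arm (0 of 37), where 4.15% of all genes were higher and 3.89% lower in NeuroD1 cells and 3.42% were higher and 2.79% lower in GFP cells. The log2 ratios of S phase and mitotic genes spanned -0.28 (Mcm7) to 0.40 (Cdt1, the helicase loading factor) in NeuroD1 cells with an SD of 0.18 over genes, and -0.27 (Ccne2) to 0.26 (Foxm1, an activator of mitotic genes) in GFP cells with an SD of 0.14. In the additive fit Ccnd2 alone rose (log2 difference 0.39, SE 0.08, adjusted p = 0.0304 by limma), where 1.05% of all genes rose and 0.404% fell. This call was lost without a filter (limma adjusted p = 0.0798), with quantile normalization (0.151) and without a variance trend (0.519). The Ccnd2 levels given above were higher with forskolin in both arms.

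In INS-1 cells the members that rose with forskolin were regulators of entry into the cycle. With 2 libraries a group, 4 of 38 tested members rose and 0 fell at adjusted p under 0.05 by limma, which is 10.5% of members against 3.07% of all genes for rises and 1.24% for falls. These 4 were the D cyclins Ccnd1 and Ccnd3 and the CDK inhibitors Cdkn1a and Cdkn1b. At an unadjusted p under 0.05, 11 of 38 members passed (28.9%), against 17.3% of all genes. Values below are on the authors' regularised log2 scale, which shrinks differences of low genes.

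Ccnd1 read 7.24 and 5.71 in forskolin libraries 1 and 2, against 4.55 and 4.59 in controls, a log2 difference of 1.90 (SE 0.34, adjusted p = 0.00869 by limma). The forskolin libraries differed from each other by more than 1 unit, yet both lay above the controls. Ccnd3 read 7.94 and 7.94 with forskolin against 7.21 and 7.13 in controls (log2 difference 0.77, SE 0.13, adjusted p = 0.00624 by limma). Ccnd2 read 8.62 and 8.92 with forskolin against 8.51 and 8.76 in controls, and its groups overlapped (limma adjusted p = 0.724). Cdkn1a read 7.77 and 7.13 with forskolin against 6.79 and 6.52 in controls (log2 difference 0.79, SE 0.20, adjusted p = 0.0448 by limma). Cdkn1b read 9.41 and 9.35 with forskolin against 8.40 and 8.88 in controls (log2 difference 0.74, SE 0.17, adjusted p = 0.0328 by limma). Both inhibitors were higher in each forskolin library than in each control. Cdkn2c read 6.15 and 5.91 with forskolin against 6.2 and 6 in controls, and Cdkn1c was at 0.

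The calls for the D cyclins and inhibitors differed in how far they rested on 1 library or setting. With a library left out, the lone one in its group is assumed to vary as the other group does. Ccnd1 was called with any 1 of the 4 libraries left out, with log2 differences from 1.14 to 2.66, but lost its call without a variance trend (limma adjusted p = 0.124). Ccnd3 lost its call without control replicate 2 (0.73, limma adjusted p = 0.0511). Cdkn1a lost it without forskolin replicate 1 (0.47, limma adjusted p = 0.219) or control replicate 2 (0.66, adjusted p = 0.185). Cdkn1b lost it without control replicate 1 (0.50, limma adjusted p = 0.305), forskolin replicate 1 (0.71, adjusted p = 0.114) or forskolin replicate 2 (0.77, adjusted p = 0.0550). Without a variance trend Cdkn1a and Cdkn1b lost their calls as well (limma adjusted p = 0.168 and 0.110), and with quantile normalization they did too (0.0590 and 0.0754), whereas Ccnd3 was called under both settings. The authors' deposited table calls the same 4 members, with log2 fold changes of 1.55, 1.20, 1.28 and 0.99 for Ccnd1, Ccnd3, Cdkn1a and Cdkn1b, where 2.7% of all genes were called higher and 0.902% lower.

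Replication and mitotic genes of INS-1 did not pass the unpaired limma test with forskolin. Of 16 S phase genes, 9 had differences above 0 and 7 below, from -0.45 for Ccne1 (limma adjusted p = 0.0856) to 0.34 for Gmnn, the geminin that blocks relicensing (median 0.06). Pcna read 10.64 and 10.39 with forskolin against 10.33 and 10.26 in controls, Mcm2 9 and 9.01 against 9.02 and 8.81, and E2f1 6.77 and 6.73 against 6.78 and 6.84. The mean differences were 0.22, 0.09 and -0.06. Of 16 mitotic genes, 14 had differences below 0, from -0.38 for the checkpoint kinase gene Bub1b to 0.09 for Cdk1 (median -0.20). Ccnb1 read 9.38 and 9.25 with forskolin against 9.69 and 9.62 in controls, Top2a 11.02 and 10.98 against 11.10 and 11.27, and Mki67 10.29 and 10.47 against 10.23 and 10.45. Ccnb1 and Top2a were thus lower in both forskolin libraries, while the Mki67 groups overlapped. For 10 of these 16 both forskolin libraries lay below both controls, against 24.6% of all genes, and for 1 above, against 23.8%. Among 40 further mitotic genes, 4 fell (10%), against 1.24% of all genes. Kif20b fell by 0.81, Tpx2 by 0.63, Aspm by 0.58 and Ckap2 by 0.54. None of 35 further replication genes passed, and 4 of 13 p53 targets rose (30.8%), against 3.07% of all genes. Plk2 rose by 1.55, Plk3 by 1.26, Btg2 by 1.12 and Aen by 0.59.

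**Figure D2:**
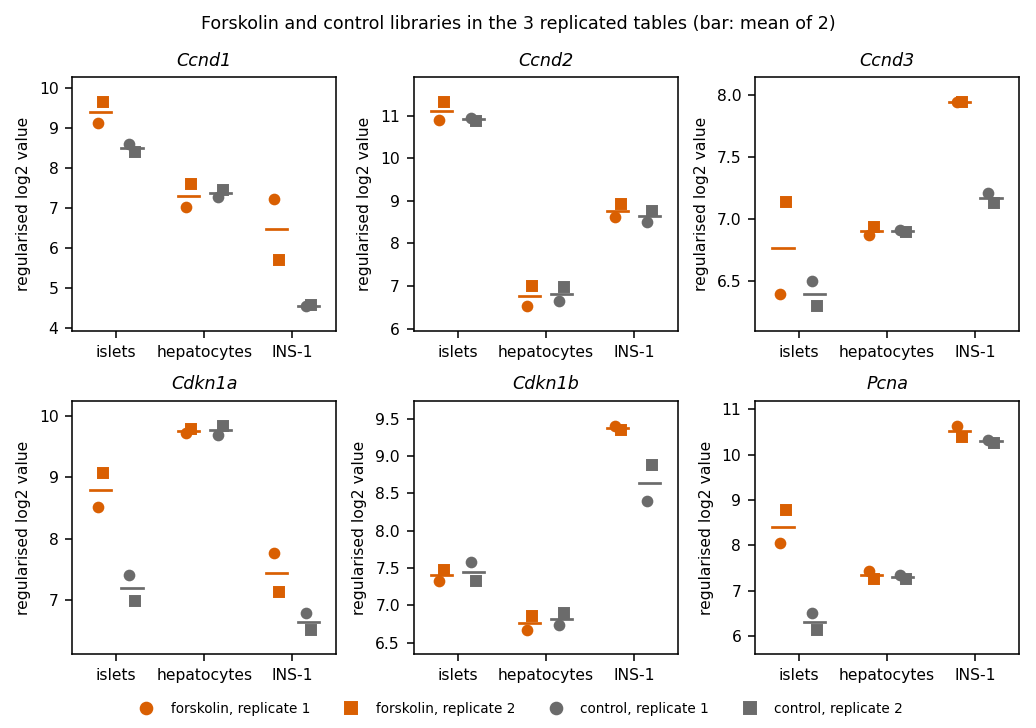
Regularised log2 expression of the D cyclins, Cdkn1a, Cdkn1b and Pcna in each library of islets, hepatocytes and INS-1 cells, with forskolin in orange, control in grey and a bar at the mean of 2 libraries. Forskolin points lie above control points for Ccnd1, Ccnd3, Cdkn1a, Cdkn1b and, by a smaller gap, Pcna in INS-1 cells, and for Pcna, Cdkn1a and Ccnd1 in islets. They do so for none of the 6 genes in hepatocytes, where columns are as named and the order of the replicate 2 pair is in doubt.

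The separate INS-1 inhibitor experiment, with 1 library a group, had the same 4 members past 1.5-fold higher, and no test could be run. Cdkn1b read 295 FPKM with forskolin and 73.6 FPKM in control, Cdkn1a 65.2 against 17.6 FPKM and Ccnd3 85.9 against 38.4 FPKM. Their log2 ratios of FPKM + 1 were 1.99, 1.83 and 1.14. Ccnd1 read 33.3 FPKM with forskolin and 0.571 FPKM in control, a ratio of 58.3 with a 95% counting interval of 30.5 to 128, since the control held about 9 reads. The intervals cover counting error only. In all, 4 of 37 members were at least 1.5-fold higher and 3 lower (10.8% and 8.11%), against 10.4% and 14.3% of all genes, so the counts were near the background. The 3 lower members were Ccne1 (20.6 against 39.3 FPKM), Cdc20, the activator of the anaphase-promoting complex (123 against 207 FPKM), and the mitotic kinase gene Plk1 (95.1 against 153 FPKM). Of 15 mitotic genes, 12 had ratios below 0 on the log2 scale, with a median of -0.21 against -0.02 over all genes.

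Ccnd3, Cdkn1a and Cdkn1b, which were higher with forskolin in both INS-1 experiments and have a matched promoter, each hold a CRE half-site there, and Cdkn1b is shown as the example. The half-site TGACG was found in 7 of 11 S phase, 2 of 13 mitotic, the 1 matched D cyclin (Ccnd3) and 2 of 3 CDK inhibitor promoters (Cdkn1a and Cdkn1b), against 18.2% of all promoters. The full CRE was found in Mcm5 alone, against 1.59%. The region is chr4:169491254-169491503 (plus strand, GRCr8), and the capitals mark the half-site, on the other strand, at -92 to -88.
Cdkn1b: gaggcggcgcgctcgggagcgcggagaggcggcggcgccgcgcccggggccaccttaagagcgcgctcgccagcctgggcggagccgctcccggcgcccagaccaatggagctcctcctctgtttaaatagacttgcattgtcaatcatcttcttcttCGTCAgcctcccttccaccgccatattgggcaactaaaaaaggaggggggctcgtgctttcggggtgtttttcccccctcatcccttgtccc

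Mcm5, whose full CRE is printed above, was not among the members that passed with forskolin in any replicated table. A half-site was present in members that moved with forskolin and in members that did not, and its part in the response was not tested. Ccnd1 and Ccnd2 had no matched promoter to read.

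JQ1 and A-485 were each compared with the same forskolin library, so their ratios share it and are given side by side only. No library had either drug without forskolin. An effect on the forskolin response therefore cannot be told apart from one on the resting level. The CDK inhibitors came out differently with the drugs. Cdkn1a read 309 FPKM with JQ1 and forskolin and 53.1 FPKM with A-485 and forskolin, against 65.2 FPKM with forskolin alone. Cdkn1b read 262 FPKM with JQ1 and 62.2 FPKM with A-485, against 295 FPKM with forskolin alone. JQ1 thus stood 4.73-fold above forskolin for Cdkn1a (95% counting interval 4.29 to 5.23), and A-485 stood 4.74-fold below it for Cdkn1b. The A-485 level of Cdkn1b was near the 73.6 FPKM of the control library. Cdkn2c read 21.0 FPKM with JQ1 and 28.8 FPKM with A-485, against 22.2 FPKM with forskolin, and Cdkn1c was listed at 0 in all 4 libraries.

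Ccnd1 was low with either drug. It read 2.25 FPKM with JQ1 and 0.700 FPKM with A-485, against 33.3 FPKM with forskolin alone and 0.571 FPKM in control. The log2 ratios to forskolin were -3.40 and -4.33. Ccnd3 read 98.0 FPKM with JQ1 and 55.9 FPKM with A-485, against 85.9 FPKM with forskolin and 38.4 FPKM in control, and passed 1.5-fold with A-485 (log2 ratio -0.61). Ccnd2 read 169 FPKM with JQ1 and 101 FPKM with A-485, against 135 FPKM with forskolin, with neither past 1.5-fold.

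**Figure D3:**
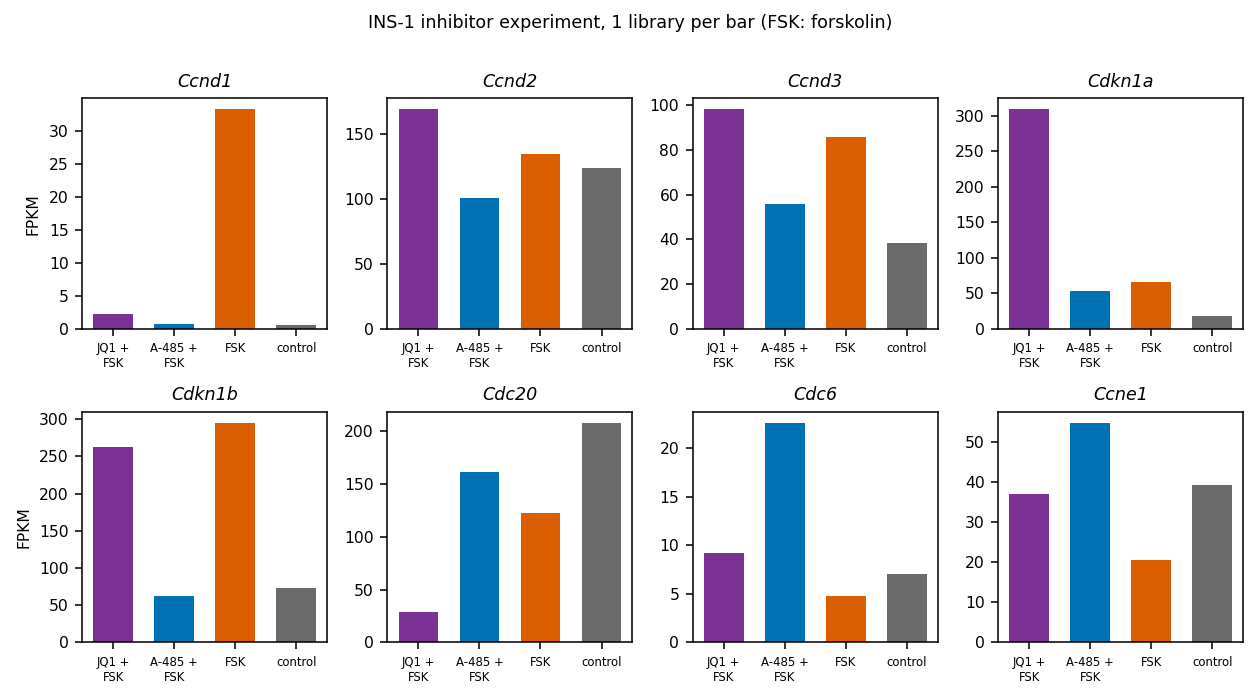
FPKM in single INS-1 libraries with JQ1 and forskolin, A-485 and forskolin, forskolin alone and control, for 8 cell cycle genes. Ccnd1 is near 0 with either drug, Cdkn1a is highest with JQ1 at 309 FPKM, and Cdkn1b is near its control level with A-485 at 62.2 FPKM.

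With JQ1, mitotic genes were lower and S phase genes were split. In all, 6 of 37 members were higher and 13 lower (16.2% and 35.1%), against 16.9% and 19.3% of all genes, so the higher members were at the background share. All 15 mitotic genes were below forskolin alone, 7 of them past 1.5-fold, with a median log2 ratio of -0.49 against -0.05 over all genes. Cdc20 read 29.2 FPKM with JQ1 against 123 FPKM with forskolin, Plk1 33.1 against 95.1 FPKM, and Aurka, the kinase of spindle poles, 24.4 against 51.0 FPKM. Ccnb1 read 75.7 FPKM with JQ1 against 155 FPKM with forskolin, and Top2a 79.6 against 140 FPKM. Mki67, at 54.6 FPKM with JQ1 against 62.1 FPKM with forskolin, was close to its level with forskolin. The mitotic genes thus spread widely, from -2.04 for Cdc20 to -0.03 for Bub1.

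Of the 16 S phase genes with JQ1, 5 were higher and 5 lower. The lower ones were Mcm3, Cdt1, Mcm2, Mcm6 and Mcm7, which load or form the replicative helicase. Mcm3 read 16.2 FPKM with JQ1 against 41.6 FPKM with forskolin, Cdt1 8.86 against 19.1 FPKM and Mcm2 35.7 against 70.2 FPKM. The higher ones were Gmnn (74.8 against 40.1 FPKM), the helicase loader gene Cdc6 (9.25 against 4.80 FPKM), Ccne1 (36.9 against 20.6 FPKM), Pcna (716 against 450 FPKM) and Ccne2 (27.2 against 17.7 FPKM). Each E-type cyclin gene was thus higher than with forskolin alone, and each Mcm gene past the threshold was lower. In the control library Ccne1 read 39.3 FPKM, above its level with JQ1, and Ccne2 read 13.7 FPKM, below it. Of 40 further mitotic genes, 16 were lower (40%) and 0 higher with JQ1, against 19.3% and 16.9% of all genes. Of 34 further replication genes 6 were lower (17.6%) and 4 higher (11.8%), both under the shares of all genes. Myc read 27.2 FPKM with JQ1 and 3.83 FPKM with A-485, against 69.4 FPKM with forskolin. Hexim1, a gene used as a marker of BET inhibition, read 555 FPKM with JQ1 and 318 FPKM with A-485, against 96.5 FPKM with forskolin.

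With A-485, S phase genes were higher and mitotic genes were near forskolin alone. In all, 10 of 37 members were higher and 3 lower (27% and 8.11%), against 16% and 18% of all genes. All 10 higher members were S phase genes, and all 16 S phase genes had ratios above 0, with a median log2 ratio of 0.61 against 0.01 over all genes. Cdc6 read 22.6 FPKM with A-485 against 4.80 FPKM with forskolin, Ccne1 54.6 against 20.6 FPKM and Ccne2, the other E-type cyclin gene, 41.0 against 17.7 FPKM. Gmnn read 75.3 FPKM with A-485 against 40.1 FPKM with forskolin and Mcm3 76.7 against 41.6 FPKM. These 5 genes were also higher with A-485 than in the control library. E2f1 read 36.2 FPKM with A-485 and 34.5 FPKM with JQ1, against 23.7 FPKM with forskolin. None of the 15 mitotic genes passed 1.5-fold, and their median log2 ratio was 0.13. Cdc20 read 161 FPKM with A-485 against 123 FPKM with forskolin, Ccnb1 173 against 155 FPKM, Top2a 135 against 140 FPKM and Mki67 63.9 against 62.1 FPKM. Among S phase genes under 1.5-fold, Pcna read 604 FPKM with A-485 against 450 FPKM with forskolin and Mcm2 92.7 against 70.2 FPKM. Rrm2, the small subunit of ribonucleotide reductase, passed 1.5-fold at 5.47 against 3 FPKM.

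With A-485, of 34 further replication genes 10 were higher (29.4%) and 0 lower, with a median log2 ratio of 0.38. Of 40 further mitotic genes 4 were higher (10%) and 0 lower, and of 13 p53 targets 4 were lower (30.8%) and 0 higher. Of all genes, 16% were higher and 18% lower. The lower p53 targets included Aen at a log2 ratio of -2.57 and Plk2 at -1.37. The summed beta cell markers were 83009 FPKM with JQ1 and 48321 FPKM with A-485, against 82545 FPKM with forskolin and 63194 FPKM in control. The part of these other genes in the result was not tested.

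**Figure D4:**
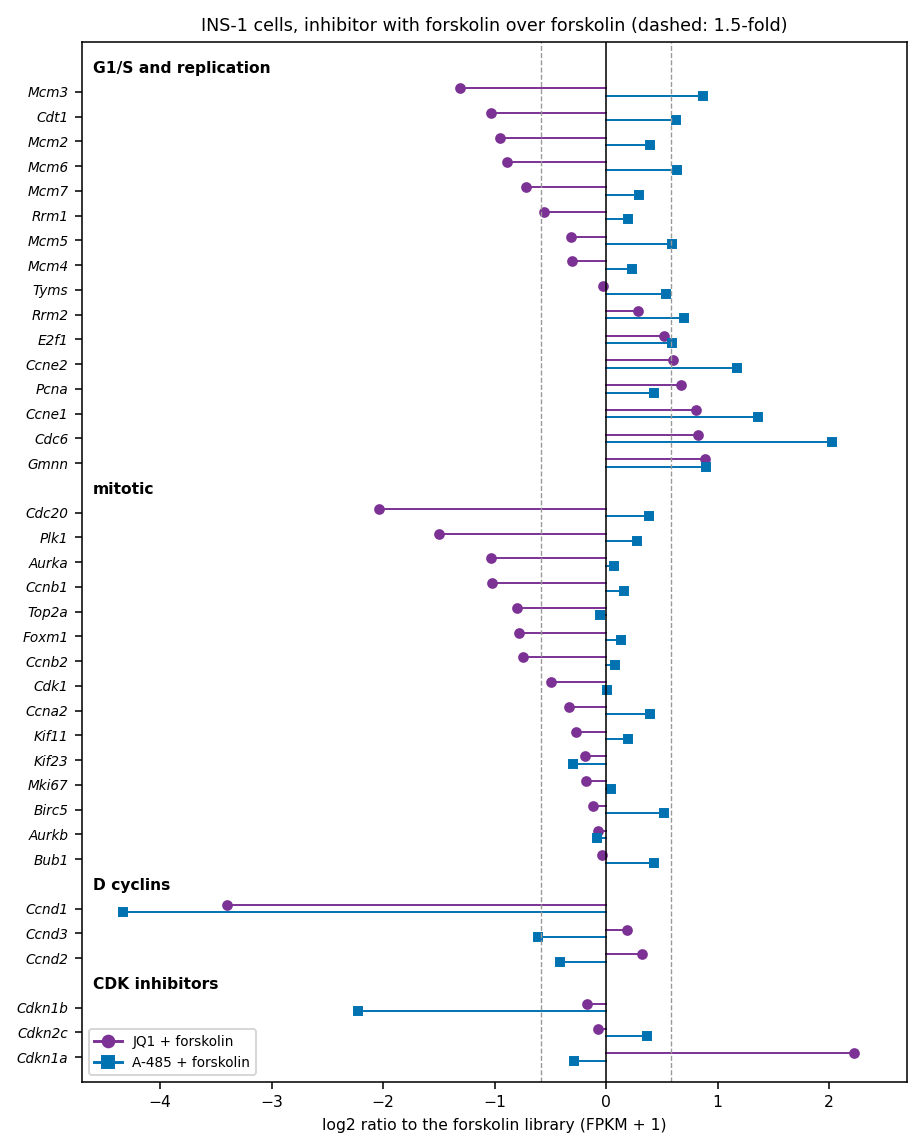
Log2 ratio of FPKM + 1 to the forskolin library for each member in INS-1 cells, with JQ1 in purple, A-485 in blue and dashed lines at 1.5-fold. All 15 mitotic genes lie below 0 with JQ1, and all 16 S phase genes lie above 0 with A-485.

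In wild-type islets, forskolin raised 1 replication gene and 1 CDK inhibitor. Of 33 members tested, 2 rose and 0 fell by limma, against 1.72% and 0.242% of 13656 genes, and 10 of 33 (30.3%) passed an unadjusted p under 0.05, against 14.5% of all genes. The 7 members under the filter were Cdc6, Gmnn, Ccnb1, Aurkb, Bub1, Birc5 and Cdkn1c. Pcna read 8.05 and 8.77 with forskolin against 6.50 and 6.13 in controls, a regularised log2 difference of 2.10 (SE 0.29, adjusted p = 0.0141 by limma). Cdkn1a read 8.52 and 9.07 with forskolin against 7.41 and 6.99 in controls (1.60, SE 0.28, adjusted p = 0.0347 by limma). The authors' deposited table gives log2 fold changes of 2.91 for Pcna and 2.13 for Cdkn1a. In the mm10 coordinates of the table, Pcna lies at chr2:132249286-132253180 on the minus strand and Cdkn1a at chr17:29093769-29100722 on the plus strand.

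Other islet members did not pass, and Ccnd1 came nearest among the D cyclins. Ccnd1 read 9.14 and 9.66 with forskolin against 8.6 and 8.4 in controls (0.90, SE 0.27, adjusted p = 0.175 by limma), while the authors' deposited table calls it at 1.20 (adjusted p = 0.0239), where 2.83% of genes were called higher and 0.369% lower. Ccnd2 read 10.9 and 11.32 with forskolin against 10.95 and 10.88 in controls, and Ccnd3 read 6.40 and 7.14 against 6.5 and 6.3. The groups overlapped for both genes. Cdkn1b read 7.32 and 7.48 with forskolin against 7.58 and 7.32 in controls. Mki67 read 3.60 and 3.39 with forskolin against 3.21 and 3.40 in controls, and Top2a read 3.79 and 2.99 against 2.77 and 2.91 (log2 difference 0.55, limma adjusted p = 0.344). Mcm2 and E2f1, at log2 differences of -0.10 and -0.11, did not pass. Both forskolin libraries lay above both controls for 9 of 33 members and below them for 6, against 23% and 23.2% of all genes. The median of 15 S phase genes tested was -0.10 and that of 12 mitotic genes 0.15, against 0.01 over all genes. Among 14 p53 targets 4 rose (28.6%), against 1.72% of all genes. Plk3 rose by 2.34, Gadd45a by 2.28, Btg2 by 1.72 and Plk2 by 1.46. Of 28 further replication genes 0 rose, and of 30 further mitotic genes 0 rose.

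The islet count moved with each library left out, and with a forskolin library out the lone one left is assumed to vary as the controls do. Without forskolin replicate 1, the library with liver transcripts, 4 of 32 members rose, against 5.93% of all genes: Pcna (2.46), Ccnd1 (1.16), Ccnd3 (0.75) and Cdkn1a. Without forskolin replicate 2, 10 of 33 members rose, against 13.8% of all genes, and E2f2 fell (-0.48), against 7.04%. Those that rose included Pcna (1.74), Top2a (0.95), Rrm1 (0.86), Ccnd1 (0.63) and Cdk1 (0.43). Without either control only Pcna was called, against 0.900% of genes that rose without control replicate 1 and 0.833% without control replicate 2, and Cdkn1a had adjusted p of 0.0675 without control replicate 1 and 0.304 without control replicate 2. Without a variance trend neither passed (limma adjusted p = 0.0507 for Pcna and 0.0691 for Cdkn1a). The median of the 12 listed acinar markers was 6.79 and 8.25 with forskolin against 6.45 and 7.81 in controls.

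In hepatocytes no member passed with the columns taken as named. If the replicate 2 pair is in fact in the header order, each named group holds 1 library of each treatment. The fit by column name then cannot show a forskolin response. By limma 0 of 39 members and 0% of 12593 genes were called in either direction, with 32 genes and 0 members at an unadjusted p under 0.05, and the authors' deposited table calls 50 genes higher and 7 lower (0.323% and 0.0452%), with 0 members, and compares the libraries in the header order rather than by column name. Log2 differences ran from -0.15 for Rrm2 to 0.07 for Mcm7. Ccnd1 read 7.04 and 7.60 in the columns named forskolin against 7.28 and 7.47 in those named control. In the same order Cdkn1a read 9.72 and 9.79 against 9.69 and 9.84, and Pcna 7.43 and 7.25 against 7.34 and 7.25. The groups of all 3 overlapped. Mki67 read 5.63 and 5.59 in the columns named forskolin against 5.66 and 5.62 in those named control. In that order Top2a read 6.51 and 6.48 against 6.50 and 6.51, and Mcm2 7.02 and 6.92 against 7.17 and 6.99. Ccnd2, Ccnd3, Cdkn1b and Cdkn2c had log2 differences from -0.06 to 0.00, E2f1 of 0.04 and Ccnb1 of 0.02, and Cdkn1c was under the filter. Both columns named forskolin lay above both named control for 1 of 39 members and below them for 5, against 7.9% and 8.1% of all genes. With the replicate 2 pair in the order of the header command, limma also called 0 members, where 0.0238% of 12597 genes were called higher and 0% lower. The markers of hepatocytes had medians of 10.53 and 10.86 in the columns named forskolin and 10.51 and 10.81 in those named control.

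The table of the CRTC2 experiment allowed the forskolin response of knockout and wild-type islets to be set side by side, with 1 library a group and no test. Its wild-type columns carry no replicate and may be libraries of the islet table above, so they are not independent of it. Crtc2 read 9.58 and 7.77 FPKM in knockout islets with and without forskolin, against 13.9 and 18.7 FPKM in wild-type islets. The targeted gene was thus lower but not at 0, and the labels do not say which exons the knockout removes.

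Pcna and Cdkn1a were high with forskolin in both genotypes. Pcna read 229 FPKM in knockout islets with forskolin against 11.4 FPKM without it, and 216 FPKM in wild-type islets with forskolin against 12.7 FPKM without it. The ratios were 20.1 (95% counting interval 15.4 to 26.5) in knockout and 17.0 (12.1 to 24.8) in wild-type islets. Cdkn1a read 166 FPKM with forskolin against 28.1 FPKM without it in knockout islets, and 182 against 23.9 FPKM in wild-type islets. Ccnd3 read 41.6 against 13.8 FPKM in knockout islets and 35.3 against 12.6 FPKM in wild-type islets. For these 3 genes the knockout and wild-type libraries gave similar values at each condition. In the replicated wild-type islets, however, the Ccnd3 groups overlapped (limma adjusted p = 0.574). Ccnd3 read 6.40 and 7.14 there with forskolin against 6.50 and 6.30 in controls, in regularised log2 units.

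Ccnd1 differed more between the genotypes. It read 53.4 FPKM with forskolin and 33.8 FPKM without it in knockout islets, and 119 FPKM with forskolin and 37.0 FPKM without it in wild-type islets. The ratio was 1.58 (95% counting interval 1.30 to 1.92) in knockout islets and 3.20 (2.81 to 3.65) in wild-type islets. Those intervals do not overlap, but they cover counting error only, and the difference between genotypes was not tested across animals. Wild-type libraries also varied. In the replicated islets, Ccnd1 differed between same-numbered forskolin and control libraries by 0.53 for replicate 1 and 1.26 for replicate 2, in regularised log2 units. Forskolin replicate 1 was the library with liver transcripts. Ccnd2 read 166 against 118 FPKM in knockout islets and 215 against 149 FPKM in wild-type islets. Cdkn1b read 39.4 against 28.0 FPKM in knockout islets and 36.2 against 30.7 FPKM in wild-type islets. The knockout libraries carried the liver transcripts described above, most of all the shallow one with forskolin, and their part in the result was not tested.

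Counts in this table were near the background. Forskolin gave 6 members higher and 7 lower of 26 in knockout islets (23.1% and 26.9%), against 23.4% and 22.7% of all genes, and 4 higher and 4 lower of 23 in wild-type islets (17.4% each), against 19% in each direction. The lower members were scarce: in knockout islets Mcm2 read 2.93 FPKM with forskolin against 5.10 FPKM without it, and Cdkn2c 1.72 against 5.06 FPKM. Mki67 stayed under 1 FPKM in all 4 libraries, and Ccnb1 was listed at 0 in 3 of them. Knockout against wild type without forskolin gave 4 higher and 2 lower of 24 (16.7% and 8.33%), against 11.8% and 10.2% of all genes. Of these 6, Cdkn2c alone reached 5 FPKM, with 5.06 FPKM in knockout islets and 3 FPKM in wild-type islets. The D cyclins, Cdkn1a, Cdkn1b and Pcna were within 1.5-fold of wild type before forskolin.

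**Figure D5:**
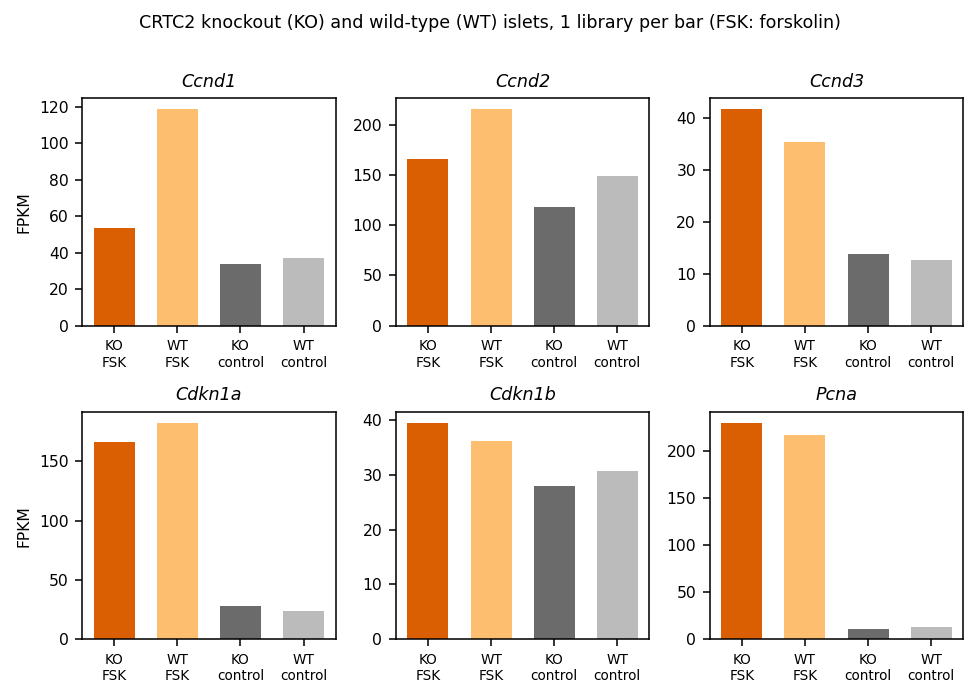
FPKM in single libraries of CRTC2 knockout and wild-type islets with and without forskolin, for the D cyclins, Cdkn1a, Cdkn1b and Pcna. Ccnd1 reaches 53.4 FPKM in knockout and 119 FPKM in wild-type islets with forskolin, whereas Pcna reaches 229 and 216 FPKM.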

How the data were processed

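RNA was extracted with Trizol and RNeasy columns and sequenced from strand-preserving libraries, per the labels. The authors' HOMER commands took RefSeq exon reads on mm10 or rn6 to regularised log2 values, deposited for the replicated tables, with their own log2 fold changes, p-values and adjusted p-values, per the file headers. The submitters' processing notes also name TopHat2 2.0.9, STAR and DESeq2. The unreplicated tables name no unit, and their deposited values behave as FPKM, since low values times transcript length pile up near whole multiples of 1 constant per library (40.1% to 55.0% of values under 10 reads within 0.1 read), which also gave the estimated depths.

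The tests had been planned for counts or log2 values, and the deposited log2 values were used as they stand. Genes with a log2 mean under 1 in both groups were left out, and limma 3.58.1 in R 4.3.3 with a variance trend and Benjamini-Hochberg adjustment called genes at adjusted p under 0.05. In the FPKM tables, genes needed 1 FPKM in the higher library, ratios used a pseudocount of 1 (which understates changes of low genes), and a gene was called at 1.5-fold without a test. Counting intervals (95%, exact, from estimated reads) cover counting error only. The scripts were tested on simulated data.

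Members and gene lists were chosen with earlier results of these data known. Every D cyclin and CDK inhibitor was named, every member called in a replicated table, up to 6 members each way with at least 5 FPKM in the other tables, and a fixed set of markers (Mki67, Top2a, Ccnb1, Mcm2, E2f1 and Pcna). Genes named beyond this were chosen after their values were seen. Replicate numbers pair no samples by the labels. Columns were used as named.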

Additional observations from a re-analysis of the deposited data

How the results depend on the processing

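Among counts recomputed under other settings, 146 stayed within 1.5 times the reported count and 32 moved, and no direction of a called value turned. The cause of these moves was not tested, except that a stricter filter or fold leaves fewer genes to call. In islets the count of members that rose was 0 without a variance trend and 1 to 10 with 1 library left out, and that of members that fell was 0 to 1. In INS-1 cells it was 2 with quantile normalization, 1 without a variance trend and 2 to 3 with 1 library left out, while 1 fell with quantile normalization. In AR42J, 0 rose with NeuroD1 without a variance trend, and 0 rose with forskolin without a filter, with quantile normalization or without a trend. The shares of all genes called higher were smaller too. Without a trend they were 1.16% in islets, 1.88% in INS-1 cells and 10.98% with NeuroD1. The main fits gave 1.72%, 3.07% and 17.6%. With quantile normalization 2.75% of INS-1 genes were called higher and 1.04% lower. For forskolin in AR42J the share was 0.792% without a filter, 0.444% with quantile normalization and 0.0197% without a trend. At 2-fold, NeuroD1 gave 0 higher without forskolin and 20 lower with it. At 2-fold, JQ1 gave 1 higher and 7 lower, A-485 3 higher, forskolin in that experiment 0 lower, knockout against wild type 1 higher and 0 lower, and forskolin in knockout islets 3 higher and 3 lower. With a filter at 5 FPKM, knockout against wild type gave 1 higher and 0 lower, forskolin in knockout islets 2 lower and forskolin in wild-type islets 0 lower. With a pseudocount of 0.1 the last count was 7. Shares of all genes are not given for the counts at 2-fold, with a filter at 5 FPKM and with a pseudocount of 0.1. Nor are they given for the INS-1 counts with 1 library left out. Those counts therefore cannot be read against a background. The labels do not say that replicate numbers pair samples. Deviations of same-numbered libraries of islets, hepatocytes and INS-1 cells correlated at -0.05, 0.40 and 0.44. With a replicate block, 3 members were called higher in islets, among 4.88% of genes higher and 0.879% lower. In hepatocytes 0 members and 0% of genes were called. In INS-1 cells 5 members were called higher and 2 lower, among 7.48% of genes higher and 6.68% lower. There the block added Gmnn (higher), Ccne1 and Bub1b (lower). With the hepatocyte pair in header order the block gave 1 lower of 39 members, Ccnd1 (log2 difference -0.19, limma adjusted p = 0.0237). Of all genes, 1.80% were called lower and 3.14% higher under that setting. Most mitotic genes of islets were under 1 FPKM at estimated depths of 5.77 M (knockout) and 2.12 M (wild type) alike.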
